A study of Mus musculus with 12 samples.

Results

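*Hdhd3* and 4 genes beside it on mouse chromosome 4 (*Bspry*, *Alad*, *Pole3* and *Rgs3*) were followed through 12 transcriptomes of newborn mouse liver and lung. These 5 genes are 5 of the 24421 gene symbols counted in each library. *Hdhd3* was chosen because its measured counts fell in both tissues of null mice, so its own difference between genotypes is given as a description with no test. Its neighbours were chosen by position. The question asked of them was whether the fall was confined to *Hdhd3* or shared along the locus.

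The mice were Man1a2+/+ (WT) or Man1a2-/- (null) pups from crosses of Man1a2+/- parents, taken within an hour of birth. The null allele, Man1a2tm1.1Ahe, lacks exon 2 of *Man1a2*, which codes for a Golgi mannosidase that trims N-glycans. The allele is a germline deletion, so every cell of a null pup carries it, and the strain background was not given in the sources used here. Each genotype and tissue had 3 libraries, from 3 pups of each genotype, and each library held between 26759463 and 42914295 counted reads.

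HDHD3 belongs to the haloacid dehalogenase family, a large group of hydrolases of which many remove phosphate from small molecules, and its own substrate is not well defined. ALAD (delta-aminolevulinate dehydratase) makes porphobilinogen, an early intermediate of haem, and haem synthesis is active in the fetal and newborn liver because that organ still forms red cells. POLE3 is a small histone-fold subunit of DNA polymerase epsilon and of the CHRAC chromatin remodelling complex. BSPRY is a B-box and SPRY domain protein of epithelial cells, and RGS3 speeds the return of heterotrimeric G proteins to their inactive state.

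On GRCm38, in the GENCODE M21 annotation, the order along chromosome 4 was *Bspry* (chr4:62480053-62497298, plus strand), *Hdhd3* (chr4:62499008-62503467, minus strand), *Alad* (chr4:62509169-62519918, minus strand), *Pole3* (chr4:62522649-62525068, minus strand) and *Rgs3* (chr4:62559847-62704001, plus strand). *Bspry* and *Hdhd3* point toward each other and end 1709 bp apart. *Hdhd3* lies 5701 bp downstream of *Alad*, and *Alad* lies 2730 bp downstream of *Pole3*. A further listed gene, *4933430I17Rik*, starts 300 bp from *Pole3* in the opposite direction, and *Rgs3* begins 11853 bp after it. *Rgs3* overlaps *Gm11209* on the other strand, so reads of the pair could not be told apart without the strand setting of the counting, which was not given in the sources used here. The other 4 genes overlap no annotated gene.

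The sequences just upstream of the minus-strand starts are shown because *Hdhd3*, *Alad* and *Pole3* are read in the same direction from separate starts. They come from RefSeq on GRCm38.p6, are written 5′ to 3′ on the minus strand, leave out annotated exons, and carry in capitals any match to a GC box (GGGCGG or its reverse, CCGCCC), to a CCAAT box (read as ATTGG on the reverse strand) or to an E-box (CACGTG). They span chr4:62502277-62502450 for *Hdhd3*, chr4:62519919-62520159 for *Alad* and chr4:62525069-62525264 for *Pole3*. The *Hdhd3* stretch lies within an intron of the longer of its 2 annotated transcripts.
Hdhd3: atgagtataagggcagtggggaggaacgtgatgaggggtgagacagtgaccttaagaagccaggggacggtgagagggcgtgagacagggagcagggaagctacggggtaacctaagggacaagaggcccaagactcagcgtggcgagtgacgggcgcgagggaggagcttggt
Alad: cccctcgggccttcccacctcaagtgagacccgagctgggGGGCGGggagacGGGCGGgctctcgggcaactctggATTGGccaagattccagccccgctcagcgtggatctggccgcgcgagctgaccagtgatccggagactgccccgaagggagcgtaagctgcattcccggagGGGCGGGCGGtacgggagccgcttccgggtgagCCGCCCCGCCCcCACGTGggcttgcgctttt
Pole3: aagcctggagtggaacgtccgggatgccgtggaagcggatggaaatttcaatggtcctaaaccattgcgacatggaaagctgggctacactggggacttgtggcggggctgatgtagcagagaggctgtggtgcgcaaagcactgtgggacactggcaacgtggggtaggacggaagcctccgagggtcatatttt
RefSeq gives 2 starts for *Alad*, and the stretch of the one nearer to *Hdhd3* is shown. In the whole window of 250 bases that ends at each of these starts, searched on both strands with motifs counted separately even where they overlap, *Alad* held 6 GC boxes, *Hdhd3* held 1, which fell in its unprinted exonic bases, and *Pole3* held 0. A GC box was present in 32.7% of 32851 mouse promoter windows of that length. The *Alad* window also held 1 CCAAT box (in 33.8% of windows) and 1 E-box (in 6.02%), and the *Hdhd3* and *Pole3* windows held neither. The window of the other *Alad* start (chr4:62520064-62520313), which overlaps it, held 2 GC boxes, 2 CCAAT boxes and 1 E-box.

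Before the comparisons, the libraries were checked against their labels. Levels are given as reads per 1000000 of the library total, after that total was scaled across the 12 libraries (CPM). *Man1a2* stood at 54.2 to 87.0 CPM in WT liver and 48.2 to 53.7 in null liver. In lung it stood at 75.6 to 107.4 CPM in WT and 42.7 to 50.2 in null. Counts per gene do not show whether exon 2 is present. The library labelled null lung 1 stood apart. All 5 lung epithelial markers were lower in it than in every other lung library (summed level 248.9 CPM against 17902 to 24834; *Sftpc*, surfactant protein C, at 26.6 CPM), all 4 endothelial markers were also lower, and all 5 skeletal muscle markers were higher (summed level 8268 CPM against 17.0 to 52.0). Its correlations with the other lung libraries were 0.85 to 0.87. Skeletal muscle markers were also high in null liver 1 (6630 CPM against 2.36 to 4.55 in the other livers), whose hepatocyte markers lay within the range of the others. None of these defining markers was at 0 in all libraries, but the haemoglobin genes *Hba-a1* and *Hba-a2* were. The lung tests of the 5 genes, the locus and the lists are therefore given with and without null lung 1, and its part in them was not otherwise tested.

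*Hdhd3* was low in every null library. In WT liver it stood at 18.6, 36.7 and 25.6 CPM (528, 888 and 749 reads) and in null liver at 0.792, 2.31 and 1.05 CPM (21, 66 and 25 reads). In WT lung it stood at 6.98, 6.24 and 6.91 CPM (389, 237 and 313 reads) and in null lung at 0.656, 0.546 and 1.199 CPM (23, 27 and 65 reads). The genotypes did not overlap in either tissue, and the lowest WT library exceeded the highest null library 8.05-fold in liver and 5.20-fold in lung.

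The null mean was 5.13% of the WT mean in liver and 11.9% in lung, and the fitted log2 fold changes were -4.26 (SE 0.43) and -3.05 (SE 0.38). By this measure *Hdhd3* ranked 3rd lowest of 14343 genes tested in liver and 14th lowest of 15591 in lung. Every null library kept well over 3 reads of the gene, so it remained detected. Without null lung 1 the lung value was -2.93, and without null liver 2, the highest null liver library, the liver value was -4.89.

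The 2 tissues differed in their WT level of *Hdhd3* more than in their null level. WT liver held a mean of 27.0 CPM and WT lung 6.71 CPM, while null liver held 1.38 and null lung 0.8005 CPM, and the null libraries of the 2 tissues overlapped. The difference between tissues in the log2 fold change was 1.22 (SE 0.59), a smaller fall in lung, and is likewise given without a test.

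*Alad* was the neighbour that came nearest to following *Hdhd3*, and it did so unevenly. In liver it stood at 254.0, 320.5 and 371.7 CPM in WT and at 125.8, 373.2 and 165.1 CPM in null. Null liver 2 lay above every WT library, and the other 2 null libraries lay below them all. The log2 fold change was -0.51 (SE 0.38, 95% interval -1.40 to 0.38), and it did not pass the quasi-likelihood test of edgeR, adjusted by the Benjamini-Hochberg method (adjusted p = 0.348, two-sided exact permutation p = 0.4). Without null liver 2 it was called, at -1.14 (SE 0.22, adjusted p = 0.0158, 23.3% of all genes called in that fit). Over the fits that left out 1 library, the value ranged from -1.14 to -0.22. No other omission gave a call, including that of null liver 1, the liver library high in skeletal muscle markers. Null liver 2 also had the highest summed level of the erythroid markers, 3779 CPM against 2104 to 3240 in the other livers. In it 3 of 6 markers lay above every other liver library, and the 6 include *Hba-a1* and *Hba-a2*, at 0 in all libraries. The part of the erythroid share in the *Alad* value was not tested. In bulk tissue, fewer cells of a type and less RNA per cell cannot be told apart.

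In lung, *Alad* stood at 72.3, 81.2 and 85.9 CPM in WT and at 19.2, 56.8 and 43.2 CPM in null, and the genotypes did not overlap. The lowest value belonged to null lung 1. The log2 fold change was -1.01 (SE 0.37, 95% interval -1.92 to -0.10), with an adjusted p of 0.171 by edgeR and an exact permutation p of 0.1, the smallest that 3 libraries against 3 can give. Without null lung 1, *Alad* was called lower at -0.68 (SE 0.14, adjusted p = 0.00878).

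*Pole3* showed no comparable difference. It stood at 27.0, 36.0 and 31.7 CPM in WT liver and 31.4, 33.4 and 31.2 CPM in null liver, with overlapping genotypes. The liver log2 fold change was 0.02 (SE 0.12, 95% interval -0.25 to 0.29, adjusted p = 0.920 by edgeR). In lung it stood at 14.8, 14.7 and 16.5 CPM in WT and 19.97, 17.3 and 17.0 CPM in null. The null lung libraries lay above the WT ones, by a log2 fold change of 0.24 (SE 0.15, 95% interval -0.13 to 0.61), which did not pass the edgeR test (adjusted p = 0.358). Without null lung 1 it was 0.15 (SE 0.12, adjusted p = 0.361).

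*Bspry*, whose end faces that of *Hdhd3* across the shortest gap, was nearly silent in liver, at 0.387, 0.330 and 0.513 CPM in WT and 0.189, 0.245 and 0.967 CPM in null (5 to 23 reads). In lung it stood at 35.2, 30.7 and 33.3 CPM in WT and 12.7, 48.3 and 45.8 CPM in null. Null lung 1 was the lowest lung library and the other 2 null libraries were the highest. The log2 fold changes were 0.15 (SE 0.64) in liver and 0.10 (SE 0.47) in lung, with edgeR adjusted p-values of 0.880 and 0.910. Without null lung 1, *Bspry* was called higher at 0.50 (SE 0.10, adjusted p = 0.00895), the opposite direction to *Hdhd3*. The summed level of 5 epithelial markers moved with it, at 598.0 CPM in null lung 1 and 1019 to 1602 CPM in the other lung libraries. Of the 5 markers, 3 were lowest in null lung 1. There *Epcam* lay within the range of WT lung, and *Krt19* was lowest in null lung 3. The part of the epithelial share in the *Bspry* value was not tested.

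*Rgs3* stood at 8.62, 8.87 and 7.94 CPM in WT liver and 7.51, 4.02 and 7.32 CPM in null liver. In lung it stood at 35.8, 35.9 and 33.5 CPM in WT and 33.5, 23.6 and 20.4 CPM in null. The null libraries lay below the WT libraries in both tissues, by a margin as small as 1.06-fold in liver and 1.001-fold in lung. The log2 fold changes were -0.44 (SE 0.25, adjusted p = 0.226) in liver and -0.44 (SE 0.21, adjusted p = 0.250) in lung by edgeR. Without null lung 1 the lung value was -0.68 (SE 0.11) and was called (adjusted p = 0.00395).

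**Figure D1:**
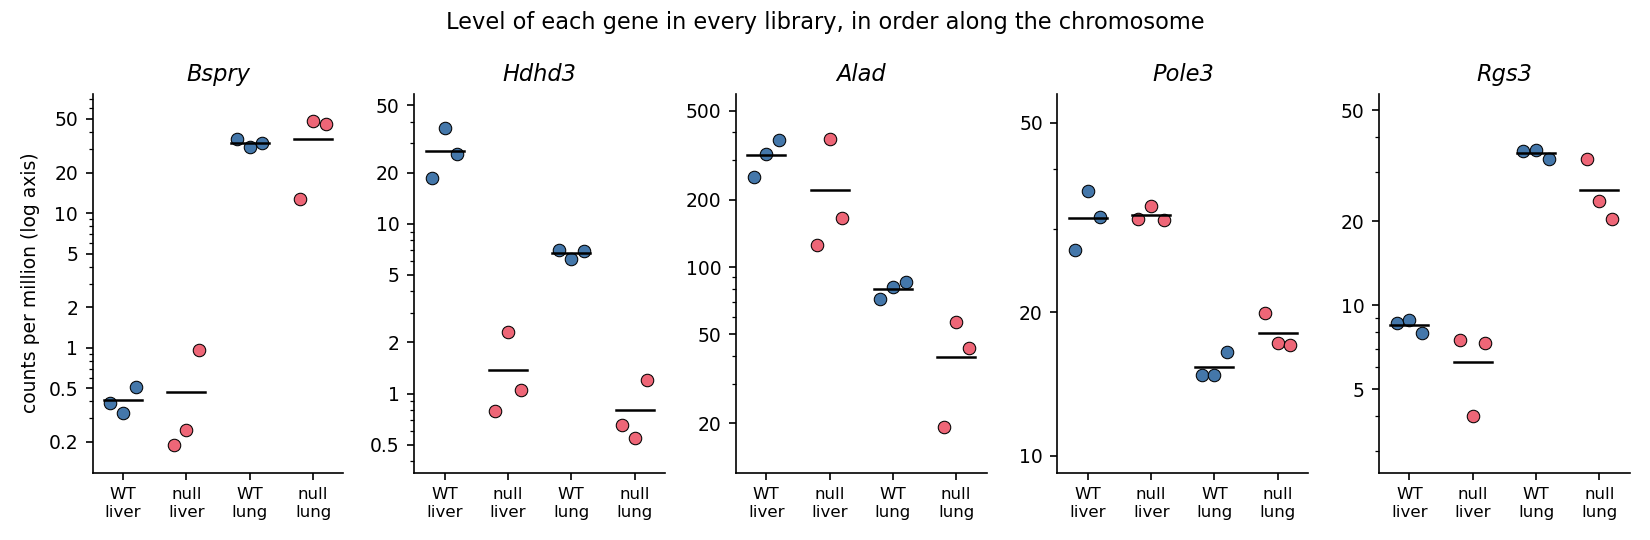
Level of each gene in every library in CPM, on a log axis whose range differs between panels. Points are libraries 1 to 3 of each group from left to right and bars are group means. *Hdhd3* separates the genotypes in both tissues, at 0.546 to 2.31 in null and 6.24 to 36.7 in WT, and *Pole3* does not show such a gap.

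Counted together, 0 of the 4 neighbours were called in liver, where 26.9% of all 14343 genes tested were called, and 0 of 4 in lung, where 0.327% of 15591 were called. A gene was called where its adjusted p was under 0.05 and its fold change 1.2 or more in either direction. At an unadjusted p under 0.05 the counts were 0 in liver and 1 (*Alad*) in lung, and DESeq2 called 0 in each tissue. Without null lung 1, 3 of 4 were called in lung, beside 37.0% of all genes. Libraries of the genotypes did not overlap for 1 neighbour in liver (*Rgs3*), beside 46.6% of all genes, and for 3 in lung (*Alad*, *Pole3* and *Rgs3*), beside 36.0%. For the difference between tissues in the effect of genotype, 0 of the 4 were called, beside 0.371% of all 16155 genes. This was the edgeR interaction term, with 0 at an unadjusted p under 0.05 and 0 called by DESeq2. It does not exclude a difference. The share over all genes went to 0 genes when same-numbered liver and lung libraries were paired as 1 pup.

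The fall was also read within each library, against the neighbours' reads, which removes any scaling between libraries. Per 100 reads of *Alad* there were 7.31, 11.4 and 6.89 reads of *Hdhd3* in WT liver and 0.630, 0.618 and 0.637 in null liver. The null liver values were almost equal, but they rest on 21, 66 and 25 reads of *Hdhd3*, too few to resolve so close a match. In null liver the library with the most *Alad* also had the most *Hdhd3*. In WT liver *Alad* was highest in library 3 and *Hdhd3* in library 2. In null lung *Alad* was highest in library 2, where *Hdhd3* was lowest. In lung the ratio was 9.65, 7.68 and 8.04 in WT and 3.41, 0.961 and 2.77 in null. Per 100 reads of *Pole3* there were 68.8 to 101.8 reads of *Hdhd3* in WT liver, 2.53 to 6.91 in null liver, 41.8 to 47.2 in WT lung and 3.16 to 7.03 in null lung. Against either neighbour the genotypes did not overlap, and as *Hdhd3* was chosen on its fall these ratios are not tested. Reads of *Alad* per 100 of *Pole3* overlapped between genotypes in liver and did not in lung.

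**Figure D2:**
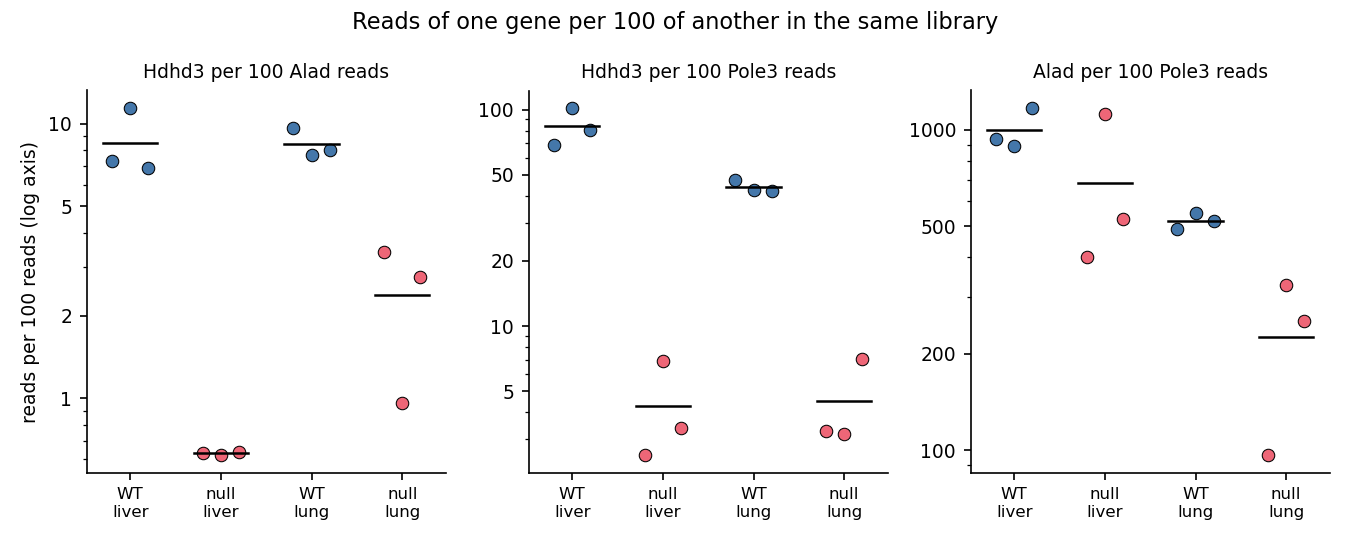
Reads of *Hdhd3* per 100 reads of *Alad* and of *Pole3*, and of *Alad* per 100 of *Pole3*, in each library on a log axis. Points are libraries 1 to 3 from left to right and bars are group means. The *Hdhd3* ratios separate WT from null in both tissues, and *Alad* per 100 *Pole3* overlaps in liver (890.4 to 1172 in WT and 401.2 to 1118 in null) but not in lung (489.3 to 550.9 in WT and 96.3 to 328.9 in null).

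The view was widened to the 30 other listed genes within 1 Mb of *Hdhd3*, of which 7 belong to the near-identical *Mup* family of urinary proteins, and 18 were expressed highly enough to be tested in each tissue. In liver 4 of the 18 (22.2%) were called, beside 26.9% of all genes, 2 higher and 2 lower. *Zfp618*, a zinc finger gene 462.1 kb away, stood at 6.44 to 8.20 CPM in WT and 15.0 to 18.8 in null (log2 fold change 1.22, SE 0.17, adjusted p = 0.00391 by edgeR). *Zfp37*, another zinc finger gene on the other side, rose by 1.18 on the log2 scale (SE 0.30, adjusted p = 0.0252 by edgeR). *Slc31a2*, which codes for a copper transporter, fell by 0.51 on the log2 scale (SE 0.15, adjusted p = 0.0407 by edgeR). *Fkbp15*, which codes for an FK506-binding family protein, fell by 0.32 on the log2 scale (SE 0.09, adjusted p = 0.0291 by edgeR). The count of 4 rested on single libraries, being 1 without WT liver 1 or without WT liver 3 and 2 without WT liver 2 or without null liver 3.

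In lung 0 of the 18 were called (2 at an unadjusted p under 0.05, 1 called by DESeq2), and without null lung 1 there were 6 of 19 (31.6%), beside 37.0% of all genes. These were *Alad*, *Bspry*, *Rgs3*, the splicing factor gene *Prpf4* and the acute phase genes *Orm1* and *Orm2*, near-identical copies whose reads the counting could split. *Orm1* had the lowest value within 1 Mb other than *Hdhd3* in lung, -1.77 (SE 0.52), from 3.16 to 5.16 CPM in WT and 0.457 to 1.68 in null. In liver the lowest was *Wdr31*, a WD repeat gene 28.1 kb away, at -0.65 (SE 0.27), and in lung the same gene had the highest value, 0.54 (SE 0.30), or 0.43 without null lung 1. It passed the test in neither tissue. The median log2 fold change of the tested genes within 1 Mb was 0.08 in liver and 0.09 in lung, beside 0.02 and 0.06 over all genes, and 0.12 in lung without null lung 1, beside -0.01. Of the 4 nearest listed genes on each side that are not among the 5, *Cdc26* stood at 0.02 in liver and 0.07 in lung, *Prpf4* at -0.16 and 0.29, *Ambp* at 0.24 and 0.44, *Kif12* at 0.39 in liver only and *4933430I17Rik* at 0.25 in lung only, and *Rnf183* was too low to test. The lung values without null lung 1 were 0.04 for *Cdc26*, 0.40 for *Prpf4*, 0.89 (SE 1.05) for *Ambp* and 0.74 (SE 0.54) for *4933430I17Rik*. *Ambp* had 303 reads in WT lung 1 and 310 in null lung 2, against 8 to 96 in the other lung libraries. The same libraries had the highest summed hepatocyte markers, 418.8 and 450.6 CPM against 24.8 to 149.4. The part of these in the *Ambp* value was not tested.

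**Figure D3:**
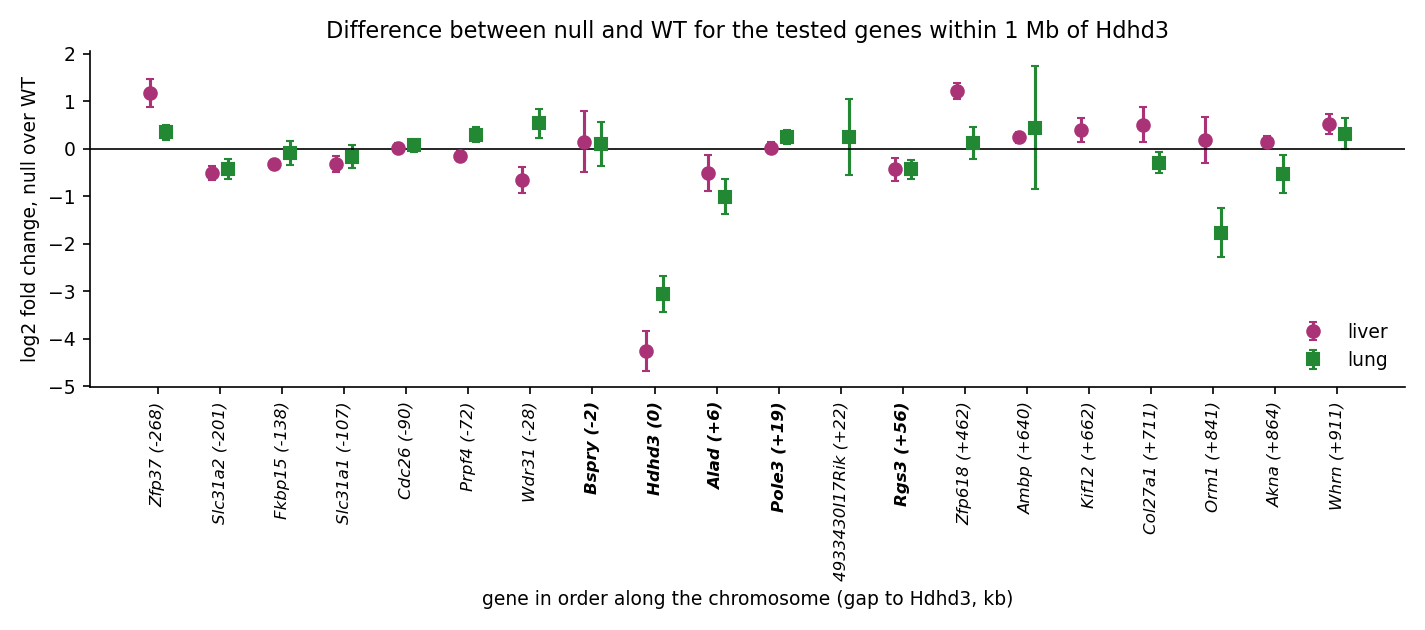
Log2 fold change of null over WT, with standard errors as bars, for the genes within 1 Mb of *Hdhd3* that were tested in liver (circles) or lung (squares), in order along the chromosome with the gap to *Hdhd3* in kb. *Hdhd3* lies at -4.26 and -3.05, and the next lowest values are -0.65 in liver and -1.77 in lung.

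Between WT lung and WT liver, a comparison that the choice of *Hdhd3* did not use, all 5 genes were called by edgeR, where 77.0% of 15635 genes were called. *Hdhd3* was lower in lung by 2.01 on the log2 scale (log2 fold change -2.01, SE 0.22, adjusted p = 2.2e-05) and *Alad* was lower by nearly as much (-1.996, SE 0.15). *Pole3* was lower at -1.05 (SE 0.12). *Rgs3* was higher in lung at 2.04 (SE 0.09) and *Bspry* was higher at 6.29 (SE 0.17). Libraries of the 2 tissues did not overlap for any of the 5. Scaling by total counts in place of trimmed means moved the median of all genes by 0.79 in this comparison, and *Pole3* was then at -0.26 and no longer called.

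Per kilobase of exon, *Alad* was the most abundant of the 5 in every group. The length took in all annotated exons of a gene, 10801 bp for *Rgs3* and 1366 bp for *Hdhd3*. A gene expressed in a shorter form is therefore understated, and the order below holds for that length only. In WT liver the mean RPKM was 168.6 ± 31.5 (SD, n = 3) for *Alad*, 19.7 ± 6.67 for *Hdhd3*, 15.5 ± 2.20 for *Pole3*, 0.785 ± 0.045 for *Rgs3* and 0.174 ± 0.040 for *Bspry*, and only *Hdhd3* and *Pole3* overlapped as neighbours in that order. In WT lung it was 42.7 ± 3.69 for *Alad*, 14.1 ± 0.956 for *Bspry*, 7.52 ± 0.493 for *Pole3*, 4.91 ± 0.297 for *Hdhd3* and 3.25 ± 0.127 for *Rgs3*, with no overlap between neighbours. In null liver *Hdhd3* came after *Alad* and *Pole3*, at 1.01 ± 0.593, where it overlapped *Rgs3*, and in null lung it was last, at 0.586 ± 0.256.

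The genes that share a pathway or family with the 5 were then counted. Of the 10 other small phosphatases of the haloacid dehalogenase family that could be tested, 5 were called in liver (2 higher, 3 lower), beside 26.9% of all genes, and 0 in lung (3 at an unadjusted p under 0.05 by edgeR), beside 0.327%. In lung without null lung 1, 4 of 10 were called, beside 37.0%. *Hdhd2* stood at 24.0, 28.4 and 21.4 CPM in WT liver and 14.3, 12.1 and 10.4 CPM in null liver, without overlap (log2 fold change -1.01, SE 0.16, adjusted p = 0.00552 by edgeR). *Phospho2* (-0.76, SE 0.11) and *Cecr5* (-0.52, SE 0.13), the older symbol of *Hdhd5*, were also called lower in liver. *Phospho1*, a phosphatase of mineralizing tissue (0.90, SE 0.24), and *Psph*, which completes serine synthesis (0.65, SE 0.11), were called higher. *Phospho1* was not called without null liver 1 or without null liver 2, and *Cecr5* was not called without null liver 1. The other family members tested differed by at most 1.01 on the log2 scale in liver, beside 4.26 for *Hdhd3*.

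Of 7 other haem synthesis genes, 1 was called in liver, beside 26.9% of all genes, and 0 in lung (1 at an unadjusted p under 0.05 by edgeR), beside 0.327%. In lung without null lung 1, 2 of 7 were called, beside 37.0%. *Uros*, which closes the porphyrin ring, stood at 40.0, 33.8 and 36.2 CPM in WT liver and 22.9, 27.4 and 17.6 CPM in null liver (log2 fold change -0.70, SE 0.17, adjusted p = 0.0212 by edgeR). *Alas1*, which makes the substrate of ALAD, had a log2 fold change of -0.73 (SE 0.32) in liver and -0.79 (SE 0.26) in lung. It did not pass the test with all libraries and was called in lung without null lung 1 (-0.60, SE 0.18). The median of the 7 was -0.12 in liver and -0.17 in lung, beside 0.02 and 0.06 over all genes, and -0.25 in lung without null lung 1, beside -0.01.

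**Figure D4:**
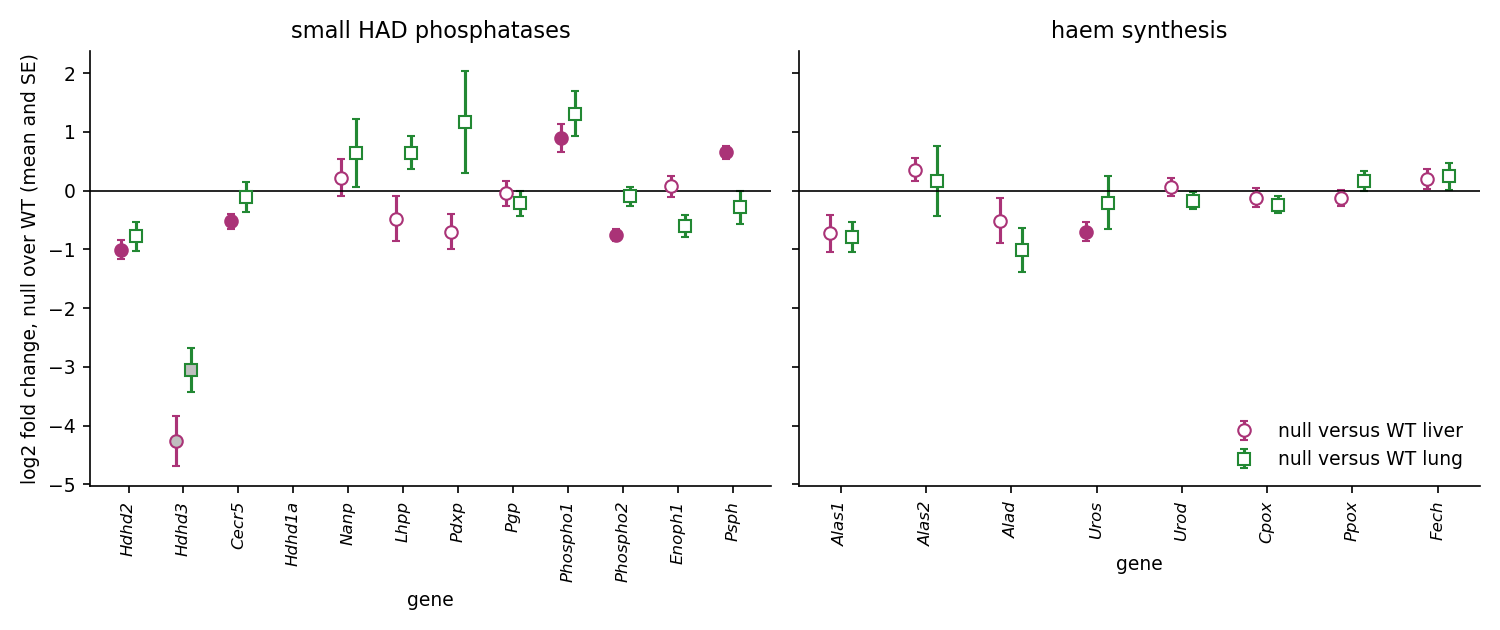
Log2 fold change of null over WT with standard errors for small haloacid dehalogenase phosphatases (left) and haem synthesis genes (right), in liver (circles) and lung (squares). Filled symbols passed the call and open symbols did not, *Hdhd3* is grey because it was not tested, and *Hdhd1a* was too low to test. *Hdhd3* lies below every other gene shown.

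Of the 6 other subunits of DNA polymerase epsilon and CHRAC, 0 were called in liver or lung by edgeR (1 in each at an unadjusted p under 0.05), beside 26.9% and 0.327% of all genes. In lung without null lung 1, 3 of 6 were called, beside 37.0%, where *Pole2* and *Pole4* were lower and *Chrac1* was higher. Of the other R4 family regulators of G protein signalling, 3 of 7 tested were called in liver, all higher, beside 26.9% of all genes. In lung edgeR called 0 of 6 (2 at an unadjusted p under 0.05), beside 0.327%. *Rgs16* stood at 16.1, 13.0 and 21.9 CPM in WT liver and 140.0, 113.8 and 426.0 CPM in null liver (log2 fold change 3.73, SE 0.54, adjusted p = 0.00464 by edgeR). *Rgs2* (1.12, SE 0.26) and *Rgs8* (1.75, SE 0.42) were the others, *Rgs8* not being called without null liver 2, and *Rgs3* itself was at -0.44 in liver. In lung without null lung 1, 3 of 7 were called, beside 37.0% of all genes, with *Rgs1* higher (3.63, SE 0.96) and *Rgs4* (-0.72, SE 0.14) and *Rgs5* (-0.50, SE 0.14) lower, where *Rgs3* was at -0.68.

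Genes whose pattern over the 12 libraries was most like that of *Hdhd3* were sought by Pearson's r of log2(CPM + 0.5), with each tissue's mean removed, among 13819 genes tested in both tissues. The highest were *Uso1* (r = 0.98), which tethers vesicles at the Golgi, *Tlr5* (0.98), the flagellin receptor, *Stx2* (0.97), a membrane fusion gene, *Zfp661* (0.97), a zinc finger gene, and *Alkbh6* (0.97), of the AlkB family. These 5 lie on chromosomes 5, 1, 5, 2 and 7, and the points share libraries and genotypes, so r is a description. They fell less than *Hdhd3*. *Zfp661* had a log2 fold change of -1.88 (SE 0.19) in liver and -1.71 (SE 0.33) in lung, and *Uso1* -0.78 (SE 0.10) and -0.51 (SE 0.12). Among the neighbours r was 0.69 for *Alad*, 0.55 for *Rgs3*, 0.04 for *Bspry* and -0.30 for *Pole3*. In that order they ranked 1984, 2984, 6477 and 8990 among the 13819 genes, so many genes elsewhere were more like *Hdhd3*. Such r values also take in the fall between genotypes on which *Hdhd3* was chosen.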

How the data were processed

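The livers and lungs of newborn WT and null pups were profiled as stranded, polyadenylated RNA-seq libraries. The submitters' processing notes name FastQC, STAR 2.5.2a, DESeq2 and the mm10 build, and the counting program, strand setting and annotation were not given in the sources used here. The authors deposited raw counts of reads per gene symbol, 1 table per library with 0 other columns, and 27 symbols had become dates. The libraries differed beyond sampling noise, so each was kept as 1 replicate.

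Counts were tested in R 4.3.3 with edgeR 4.0.16 (filterByExpr, TMM, quasi-likelihood test, Benjamini-Hochberg adjustment over all genes), within each tissue for genotype and over all 12 libraries for the difference between tissues. CPM used TMM-scaled totals of the 12 libraries, RPKM the GENCODE M21 exon length, and permutation tests log2(CPM + 0.5). DESeq2 1.42.0, other scalings and filters, 1 fit of all libraries, the replicate block and leaving out each library were alternatives. Scripts were tested on simulated data. The edgeR and DESeq2 p-values weigh a difference between groups against the spread between these libraries, and permutation p-values count relabelings of them.

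The members and lists were chosen with earlier results of these data known. Named were the 5 genes, the 4 nearest listed genes on each side, called genes within 1 Mb, the 5 genes most like *Hdhd3*, and called or adjacent genes of the lists, of which 1 gene is not reported here. Same-numbered liver and lung libraries of a genotype deviated together (r 0.19 to 0.46). Of the differently numbered pairs, null liver 3 with null lung 2 (0.25) and null liver 2 with null lung 3 (0.22) also did, and the rest were negative. In the comparisons of tissues the replicate block took same-numbered libraries as the same pup. In the comparisons of genotypes the block instead joined WT and null libraries of the same number, which are different pups. The main fits that compared tissues did not pair libraries. Older symbols were matched through RefSeq.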

Additional observations from a re-analysis of the deposited data

How the results depend on the processing

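Of 302 values of the 5 genes under other settings, 264 were counted as unchanged. For tested values this meant the same direction and the same side of the threshold. For the effect of genotype on *Hdhd3*, which was not tested, it meant the same direction and a shift below the SD within groups. *Hdhd3* stayed between -4.89 and -3.96 in liver and between -3.48 and -2.83 in lung on the log2 scale, and it did not change sign. In the comparisons of genotypes, the calls of the neighbours moved only when a library was left out. They ranged from 0 to 1 in liver (1 without null liver 2) and from 0 to 3 in lung (3 without null lung 1), and the genes within 1 Mb from 1 to 3 in liver and from 0 to 6 in lung. Within 1 Mb, liver gave 2 calls with all 12 libraries in 1 fit and 1 with the replicate block, and lung gave 1 with DESeq2. The cause was not tested.

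Over all genes, liver gave 1921 calls with all libraries in 1 fit (3856 in the main fit) and 1641 to 3451 when a library was left out (2150 without WT liver 1, 2268 without WT liver 2, 1641 without WT liver 3). Lung, with 51, gave 2355 with DESeq2, 2 with DESeq2 size factors, 317 with total counts, 210 with at least 10 counts in every library, 0 with at least 1 count in all, 2284 in 1 fit of all libraries, 0 with the replicate block and 0 to 5881 when a library was left out, 5881 being without null lung 1 and 0 without any of the other 5. The difference between tissues, with 60, gave 610 with DESeq2, 92 and 33 under the filters, 0 with the block and 0 to 813 when a library was left out, with a move of over 1.5 times for every library but null lung 2. WT and null libraries of the same number shared only the number (r -0.04 to 0.14), and the block changed no call of a neighbour.

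Values near 0 changed sign. In liver, *Pole3* went to -0.11 with total counts, -0.0116 with at least 10 counts and -0.0728 to 0.109 when a library was left out, and *Bspry* to -0.0275 with total counts, -0.0401 with the block and -0.92 to 0.52 when a library was left out. In lung, *Bspry* went to -0.0382 with total counts, -0.0922 with the block and -0.16 to 0.50 when a library was left out. In the difference between tissues, *Alad* ranged from -0.83 to 0.11 and *Bspry* from -0.41 to 1.03 when a library was left out, with *Bspry* at 0.0038 with the block. *Rgs3* went there to 0.0215 with DESeq2, 0.0253 with DESeq2 size factors, 0.0217 with total counts, 0.0155 with at least 10 counts, 0.0112 with the block and -0.25 to 0.16 when a library was left out. Total counts moved the median of all genes by -0.13 in liver and -0.12 in lung, and split the calls into 1069 higher and 2284 lower in liver (1931 and 1925 in the main fit) and 50 and 267 in lung (14 and 37), and between WT tissues into 10133 and 2997 (6227 and 5812). Depth limits *Bspry* in liver, with 5 to 23 reads.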
